A study of Mus musculus with 8 samples.

Results

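Genes of the B cell receptor, the immunoglobulin chains and the B cell coreceptor Cd72 were examined in 8 mammary tumours that arose spontaneously in mice carrying a neu transgene. The members were chosen by name and comprise 9 genes: Cd79a, Cd79b, Ighm, Jchain, Blnk, Ms4a1, Cd37, Cd22 and Cd72. Of these, 8 were matched to a probe, through 11 probes of 24341 on the array, and Ms4a1 was not analysed here because no probe was matched to it by accession or symbol. A probe whose file symbol is an old synonym of Ms4a1 carries the accession of another gene, Ms4a2, and was not taken for it. After the filter on dim probes 6 members were tested among 13142 genes and unnamed probes, and Cd79a and Jchain were too dim to be tested.

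The tested tumours were 4 from mice given topical imiquimod cream for 1 cycle, and they were compared with 4 from mice given control cream. All 8 tumours came from the strain FVB/N-TgN (MMTVneu)-202Mul, in which a mammary tumour virus promoter drives the neu oncogene, so both groups carried the transgene. Imiquimod activates the innate receptor Tlr7. Age is not among the labels, nor is it stated if each tumour had its own mouse. The p-values therefore reflect tumour-to-tumour spread, which could be partly technical. If tumours shared a mouse they were not independent, and the p-values may be too small for a treatment effect across mice. The question was how treated tumours differ from control tumours. Values are log2 signals on Illumina bead arrays, whose array medians were all about 6.82, and no detection call was used. Luminal epithelial markers, which define the labelled tissue, had a mean over 9 tested genes of 9.54 to 9.91 in imiquimod tumours and 9.57 to 9.90 in control tumours. Krt8 was bright, at 11.07 to 11.49 in imiquimod tumours and 11.19 to 11.29 in control tumours, but the probe of Epcam was near the array median in all 8 tumours.

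The B cell receptor is a membrane immunoglobulin of heavy and light chains held together with the signalling chains Cd79a and Cd79b. Binding of antigen leads through the kinases Lyn and Syk to the adaptor Blnk, which brings together Btk and Plcg2. The lectin Cd22 and the coreceptor Cd72 carry inhibitory motifs that recruit the phosphatase Ptpn6 and dampen the signal. Plasma cells secrete immunoglobulin, and Jchain links the units of secreted IgM and IgA.

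Cd72 stood far above its control level in every imiquimod tumour, and the brighter probe of the IgM heavy chain gene Ighm rose as well. The chains and coreceptors that mark B cells more narrowly, Cd79a, Cd79b and Cd22, stayed near or below the array median in all 8 tumours. Among the 6 members tested, 2 rose and none fell, where of all genes tested 4.33% passed in either direction, 2.13% rose and 2.2% fell (limma, Benjamini-Hochberg adjusted p below 0.05). The median log2 fold change over the 6 was 0.33, beside -0.02 over all genes tested. These tumours are mixtures of cells, so that more cells of a type and more RNA per cell cannot be told apart.

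**Figure D1:**
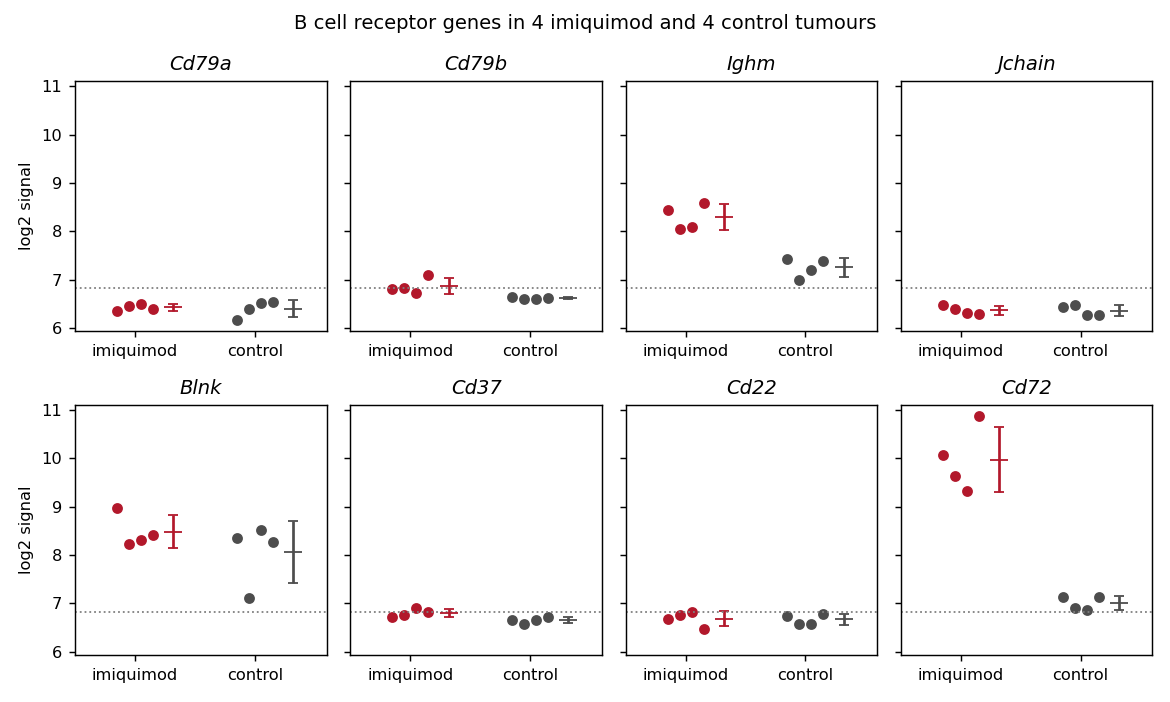
Log2 signal of the 8 members with a probe, using the brightest probe of each. Each point is a tumour (imiquimod left in red, control right in grey, tumours 1 to 4 from left to right), the bar is the mean ± SD of 4 tumours, and the dotted line is the median of the array medians. Cd72 and Ighm separate fully between the groups, while Cd79a and Jchain lie under the dotted line in all 8 tumours.

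Cd72 is a type II membrane protein of B cells that binds the semaphorin Sema4d, and in mice it has also been described on myeloid cells. Its single probe gave log2 signals of 10.06, 9.64, 9.32 and 10.87 in imiquimod tumours 1 to 4, against 7.13, 6.89, 6.86 and 7.14 in control tumours 1 to 4. Every imiquimod tumour was far above every control tumour, and the control values lay close to the array median. The means were 9.97 ± 0.67 in imiquimod tumours and 7.003 ± 0.15 in control tumours (SD, n = 4 each). Cd72 rose by 2.97 on the log2 scale (SE 0.28, limma adjusted p = 0.00198), a 7.84-fold difference. It passed the threshold in all 20 alternatives tried, with log2 fold changes of 2.67 to 3.19.

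Its probe was brighter on average than 87.4% of all probes. Imiquimod tumour 4 was the highest and imiquimod tumour 3 the lowest of its group.

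The stretches upstream of member genes are shown so that Cd72, which rose, can be set beside Cd79a, too dim to be tested, and Blnk, which did not pass. RefSeq promoter windows (GRCm38.p6, 300 bases around the gene's start, 5′ to 3′ as the table gives them) were found for 6 members, namely Cd72, Jchain, Cd79a, Cd22, Cd37 and Blnk. The Ets core AGGAAGT, on either strand, and the octamer ATTTGCAT, also on either strand, are in capitals in the windows of Cd72 (chr4:43454577-43454876, minus strand), Cd79a (chr7:24897247-24897546, plus strand) and Blnk (chr19:40994172-40994471, minus strand).
Cd72: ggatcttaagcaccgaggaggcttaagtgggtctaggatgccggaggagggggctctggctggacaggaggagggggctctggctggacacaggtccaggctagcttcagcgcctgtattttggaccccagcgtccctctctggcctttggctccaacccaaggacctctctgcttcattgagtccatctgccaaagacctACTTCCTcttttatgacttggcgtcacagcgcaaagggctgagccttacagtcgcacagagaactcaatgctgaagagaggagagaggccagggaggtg
Cd79a: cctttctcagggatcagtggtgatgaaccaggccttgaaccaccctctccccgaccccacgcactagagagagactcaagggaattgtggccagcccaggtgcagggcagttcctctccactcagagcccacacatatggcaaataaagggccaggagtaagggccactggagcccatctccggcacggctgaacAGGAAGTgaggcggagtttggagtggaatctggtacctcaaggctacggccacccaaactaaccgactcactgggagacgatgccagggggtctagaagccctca
Blnk: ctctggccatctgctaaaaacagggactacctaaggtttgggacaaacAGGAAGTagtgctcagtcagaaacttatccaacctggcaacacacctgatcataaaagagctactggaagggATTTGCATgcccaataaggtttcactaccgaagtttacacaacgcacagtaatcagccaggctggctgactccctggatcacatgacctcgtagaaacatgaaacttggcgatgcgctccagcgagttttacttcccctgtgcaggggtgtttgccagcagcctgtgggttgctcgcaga
The Ets core was found in 4 of the 6 windows, those of Cd72, Cd79a, Cd37 and Blnk, and in 9.35% of 32851 promoter windows of the same length. It began at position -49 from the start in Cd72, on the opposite strand, and at position -55 in Cd79a. The octamer was found in Blnk alone of the 6 and in 1.74% of all windows. The interferon-stimulated response element (3.44% of all windows) and the gamma-activated site TTCNNNGAA (8.30%) were in none of the 6, and the Ebf site (0.904%) was in that of Cd22 only. The Ets core and the octamer did not overlap, and the motifs were chosen after the sequences had been read. A match is only a run of letters, and no binding was measured.

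Ighm encodes the constant part of the IgM heavy chain, the first class that a B cell makes. Its brighter probe gave log2 signals of 8.43, 8.04, 8.09 and 8.59 in imiquimod tumours 1 to 4, against 7.43, 6.99, 7.19 and 7.39 in control tumours 1 to 4. All 4 imiquimod tumours were above all 4 control tumours. The means were 8.29 ± 0.27 in imiquimod tumours and 7.25 ± 0.20 in control tumours (SD, n = 4 each). Ighm rose by 1.04 on the log2 scale (SE 0.14, limma adjusted p = 0.00796), a 2.05-fold difference. The dimmer Ighm probe gave 7.49, 6.83, 7.08 and 7.45 in imiquimod tumours 1 to 4, against 6.62, 6.24, 6.59 and 6.31 in control tumours 1 to 4. This probe too separated the groups, with a log2 fold change of 0.77 (SE 0.15, limma adjusted p = 0.0327 over the 16227 kept probes tested singly, of which 2% rose). Its control mean of 6.44 lay under the filter limit of 6.64, and it was kept through its imiquimod mean of 7.21, so it adds little to the brighter probe. Ighm lost its call when imiquimod tumours 3 and 4 were both left out (log2 fold change 0.99, limma adjusted p = 0.0572). Skeletal muscle markers averaged 6.98, 6.78, 9.37 and 8.79 in imiquimod tumours 1 to 4, against 6.61 to 7.56 in control tumours, and their part in the result was not tested. Immunoglobulin constant regions resemble each other in sequence, and a probe may take up RNA of a related chain.

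Cd79b, a signalling chain of the receptor, gave 6.80, 6.82, 6.73 and 7.10 in imiquimod tumours 1 to 4, against 6.63, 6.597, 6.61 and 6.63 in control tumours 1 to 4. The groups did not overlap, as for 5.52% of all genes with every imiquimod tumour higher. The difference of 0.25 (SE 0.08) did not pass (limma adjusted p = 0.142), and a second probe, with 6.62 to 6.82 in imiquimod tumours and 6.49 to 6.79 in control tumours, overlapped. Both probes lay near the array median. Cd79a, its partner chain, ranged from 6.35 to 6.50 in imiquimod tumours and from 6.17 to 6.53 in control tumours. Only 9.12% of all probes had a lower mean.

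Jchain ranged from 6.28 to 6.47 in imiquimod tumours and from 6.26 to 6.47 in control tumours, with 5.37% of all probes below it. Both groups covered nearly the same range.

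Blnk, the adaptor, was above the array median in all 8 tumours, with 8.98, 8.24, 8.31 and 8.41 in imiquimod tumours 1 to 4, against 8.35, 7.12, 8.51 and 8.26 in control tumours 1 to 4. The groups overlapped, and control tumour 2 was the lowest. The log2 fold change of 0.42 (SE 0.29) did not pass (limma adjusted p = 0.485) and was 0.11 without control tumour 2. The second Blnk probe gave 0.22 (SE 0.14).

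The tetraspanin Cd37, found on B cells and other leukocytes, gave 6.73, 6.76, 6.91 and 6.81 in imiquimod tumours 1 to 4, against 6.66, 6.56, 6.66 and 6.72 in control tumours 1 to 4. The lowest imiquimod tumour, at 6.726, barely exceeded the highest control tumour, at 6.721, and the log2 fold change of 0.15 (SE 0.07) did not pass (limma adjusted p = 0.262). Cd22, an inhibitory lectin that binds sialic acid, had 6.68, 6.75, 6.83 and 6.47 in imiquimod tumours 1 to 4, against 6.74, 6.58, 6.56 and 6.78 in control tumours 1 to 4. The groups overlapped, with a log2 fold change of 0.02 (SE 0.09, limma adjusted p = 0.949). In all, 4 of the 6 members tested had every imiquimod tumour above every control tumour, namely Cd72, Ighm, Cd79b and Cd37, where 5.52% of all genes tested did (12.6% were apart in either direction). Of these 4, Cd79b had a control mean under the filter limit.

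**Figure D2:**
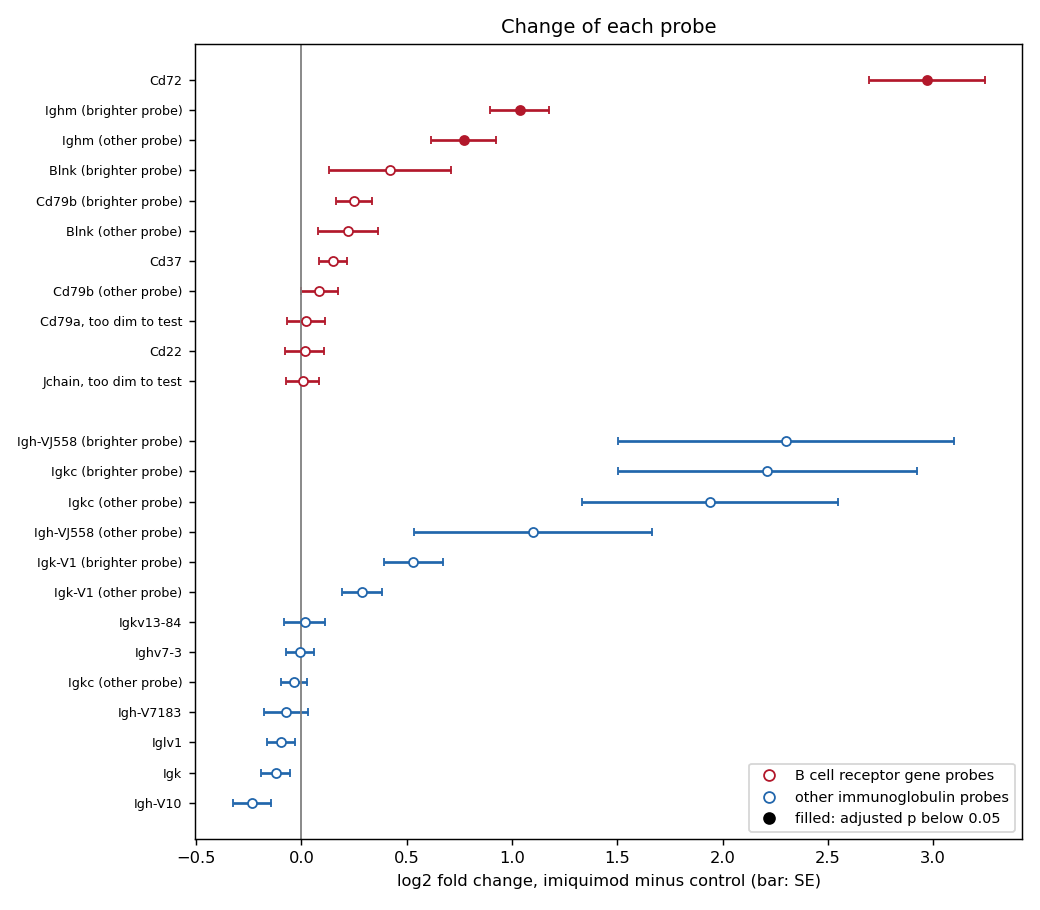
Log2 fold change (imiquimod minus control) of the 11 member probes in red and of the 13 other immunoglobulin probes kept by the filter in blue, with bars of 1 SE. Filled points passed an adjusted p of 0.05 among the kept probes: Cd72 at 2.97 and the Ighm probes at 1.04 and 0.77. The Ighm probe at 0.77 had a control mean of 6.44, under the filter limit of 6.64, and was kept through its imiquimod mean. Igkc and Igh-VJ558 lie between 1.10 and 2.30 on their higher probes with wide bars.

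The change of Cd72 was set against that of each of the 7 other members, as the per-tumour difference of log2 signals between the genes. The difference of changes was smallest against Ighm, at 1.93 log2 units, and was 2.55 against Blnk and 2.72 against Cd79b. Against Cd37 and Cd22 it was 2.82 and 2.95, and against Cd79a and Jchain, which were too dim to be tested, it was 2.95 and 2.96. Cd72 was singled out as the member with the largest change, so these differences are a description and no test is given.

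Light chains and other heavy chains gave a different order of tumours. Of 25 further immunoglobulin probes, 13 were kept and none passed in either direction, with 5 of the 25 above all control tumours in every imiquimod tumour, against 3.96% of all probes. The brightest probe of Igkc, the constant part of the kappa light chain, gave 7.68, 11.68, 8.29 and 9.43 in imiquimod tumours 1 to 4, against 7.65, 6.82, 6.95 and 6.81 in control tumours 1 to 4. Imiquimod tumour 2 was highest by far, and imiquimod tumour 1 was barely above control tumour 1. Its log2 fold change of 2.21 had an SE of 0.71 (limma adjusted p = 0.13).

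A second Igkc probe repeated the order, with 7.33, 10.77, 7.82 and 8.74 in imiquimod tumours 1 to 4, against 7.09, 6.63, 6.61 and 6.56 in control tumours 1 to 4. Of the other Igkc probes, 1 had 6.99 to 7.10 in imiquimod tumours and 7.02 to 7.11 in control tumours, and 1 was too dim to be tested. The probes of Igkc therefore disagree, and the sequence each one targets is not given in the sources used here.

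Igh-VJ558, a family of heavy chain variable segments, gave 8.64, 12.65, 8.22 and 10.07 in imiquimod tumours 1 to 4, against 8.13, 7.43, 7.34 and 7.49 in control tumours 1 to 4. Again imiquimod tumours 2 and 4 were the highest, and imiquimod tumour 3 was barely above control tumour 1. The log2 fold change was 2.30 (SE 0.80, limma adjusted p = 0.158), and 1.38 without imiquimod tumour 2. Without that tumour the log2 fold change of Igkc was 1.41 (limma adjusted p = 0.118).

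Igk-V1, a kappa variable segment, gave 6.98, 7.53, 6.85 and 7.21 in imiquimod tumours 1 to 4, against 6.59, 6.43, 6.70 and 6.72 in control tumours 1 to 4. As for Igkc, imiquimod tumours 2 and 4 were the highest, with a log2 fold change of 0.53 (SE 0.14, limma adjusted p = 0.0734). The control mean of this probe, 6.61, lay under the filter limit of 6.64, and it was kept through its imiquimod mean of 7.14. A second kept Igk-V1 probe gave a log2 fold change of 0.29 (SE 0.095), and its groups overlapped. It too had a control mean under the limit, at 6.56, and was kept through its imiquimod mean of 6.85. The remaining tested chains, Igh-V10, Igk, Iglv1, Igh-V7183, Ighv7-3 and Igkv13-84, had log2 fold changes from -0.24 to 0.02. Variable segments of a family are near copies, so which gene a probe reports is uncertain.

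Ighm did not follow these chains. Imiquimod tumour 2, the highest for Igkc and Igh-VJ558, was the lowest imiquimod tumour on both Ighm probes. A mean log2 signal over 6 milk protein genes, a list chosen after these values were seen, was 9.91, 13.14, 12.00 and 11.31 in imiquimod tumours 1 to 4, against 10.60 to 10.95 in control tumours. Imiquimod tumour 2 was thus also the highest for milk genes, whose part in the result was not tested. Pigr, which carries IgA and IgM across the mammary epithelium, was 8.97, 10.46, 9.08 and 9.81 in imiquimod tumours 1 to 4, against 8.21, 7.12, 7.36 and 9.002 in control tumours 1 to 4 (log2 fold change 1.66, SE 0.44, limma adjusted p = 0.0792). Its highest tumours were likewise imiquimod 2 and 4, and control tumour 4 overlapped the imiquimod group.

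**Figure D3:**
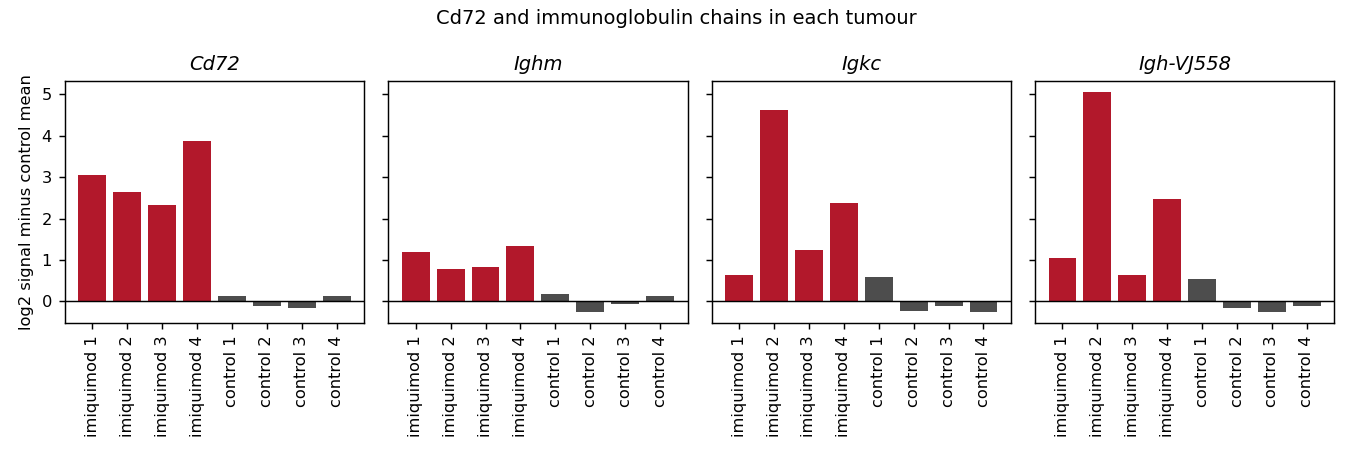
Log2 signal of Cd72, Ighm, Igkc and Igh-VJ558 (brightest probe of each) in each tumour, minus the mean of the 4 control tumours of that gene; imiquimod tumours in red, control tumours in grey. Cd72 and Ighm are above the control tumours in all 4 imiquimod tumours, while Igkc and Igh-VJ558 are highest in imiquimod tumours 2 and 4.

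Of 15 other listed surface genes of B cells, 8 were tested and none passed, with a median log2 fold change of 0.01. Of the 8, 2 had an unadjusted limma p below 0.05, and the share over all genes is not given here. The receptor of the survival factor Baff, Tnfrsf13c, had a log2 fold change of -0.14 (limma adjusted p = 0.46). Ly86, a partner of the Toll-like protein Cd180 that myeloid cells carry too, had 0.76 (SE 0.18, adjusted p = 0.055), and imiquimod tumour 2 was its lowest treated tumour. Cd81, a tetraspanin that most cells express, had -0.30 (adjusted p = 0.17).

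Of 14 listed transcription factors of B and plasma cells with a probe, 10 were tested and none passed, with a median log2 fold change of 0.19. Pax5, which fixes B cell identity, was too dim to be tested, with 6.49 to 6.76 in imiquimod tumours and 6.59 to 6.73 in control tumours. Spi1, shared by B cells and myeloid cells, had 0.37 (SE 0.09, limma adjusted p = 0.0682). Ebf1, which B cell precursors and stromal cells use, had 0.37 (SE 0.10, adjusted p = 0.0691), and Bcl6, of germinal centre B cells and other cells, had 1.05 (SE 0.27, adjusted p = 0.0715). In each of these 3 all imiquimod tumours lay above all control tumours, as for 5.52% of all genes tested. They were named for the smallest p of the list, so such separation is likely among them.

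Of 8 plasma cell genes, 6 were tested and none passed (median -0.01). Among them Slamf7, a surface receptor, had 0.24 (limma adjusted p = 0.224) and Derl3, of the protein quality control of the endoplasmic reticulum, had -0.31 (adjusted p = 0.257). Fkbp11, a folding enzyme of secretory cells, had 0.13 (adjusted p = 0.715), with its highest value of 10.73 in imiquimod tumour 2. Of 7 genes of B cell precursors, 4 were tested and none passed. Vpreb1, of the surrogate light chain, had 0.02, Rag2, of the recombinase, had -0.10, and Cd93, which endothelial and myeloid cells also carry, had 0.23.

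The signalling chain below the receptor held 1 gene that rose, Vav1. Of 20 listed transducers, 16 were tested, 1 rose and none fell, with a median log2 fold change of 0.22. An unadjusted limma p was below 0.05 for 8 of the 16, and the share over all genes is not given here. Vav1, an exchange factor for Rac found in most leukocytes, gave 8.37, 8.25, 8.62 and 9.45 in imiquimod tumours 1 to 4, against 7.16, 6.92, 7.15 and 7.18 in control tumours 1 to 4. The groups were fully apart, and Vav1 rose by 1.57 (SE 0.22, limma adjusted p = 0.00945). The kinase Btk had 0.57 (SE 0.14, adjusted p = 0.0577) and the kinase Prkcb 0.97 (SE 0.24, adjusted p = 0.0649). Neither passed, although all imiquimod tumours of both lay above all control tumours. That held for 6 of the 16 tested transducers, against 5.52% of all genes tested. Of these 6, Pik3ap1 had a control mean of 6.635, just under the filter limit of 6.639, and was kept through its imiquimod mean of 6.89. Syk, at 6.47 to 6.65 in imiquimod tumours and 6.36 to 6.597 in control tumours, was too dim to be tested, as were Lyn, the B cell kinase Blk and Malt1.

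Of 15 listed inhibitors and phosphatases, 13 were tested, 1 rose and none fell, where 2.13% of all genes tested rose. The median log2 fold change was 0.21. An unadjusted limma p was below 0.05 for 6 of the 13, again without a share over all genes to set it against. All imiquimod tumours were above all control tumours for 3 of the 13, against 5.52% of all genes tested. The one that rose was Dok3, an adaptor that dampens signalling in B cells and macrophages, with 8.13, 8.21, 9.08 and 9.01 in imiquimod tumours 1 to 4, against 7.502, 7.53, 7.56 and 7.59 in control tumours 1 to 4. Imiquimod tumours 3 and 4 were the higher pair, and the log2 fold change was 1.06 (SE 0.21, limma adjusted p = 0.0311). The call of Dok3 was lost without imiquimod tumour 3 or 4 or any 1 control tumour (adjusted p up to 0.0767), and with the mean of its kept probes the log2 fold change was 0.57 (adjusted p = 0.0471). Without imiquimod tumours 3 and 4 together Dok3 had 0.62 (limma adjusted p = 0.0274). Ptpn6, the phosphatase that Cd72 and Cd22 recruit, had 9.27, 8.69, 8.92 and 9.68 in imiquimod tumours 1 to 4, against 8.63, 8.81, 8.68 and 8.96 in control tumours 1 to 4. The groups overlapped, and the difference of 0.37 on the log2 scale (SE 0.19) did not pass (limma adjusted p = 0.331). Sema4d, the ligand of Cd72, had -0.11 (adjusted p = 0.451), Ptpn22, a phosphatase of lymphocytes, had 0.48 (adjusted p = 0.0953), and the inhibitory Fc receptor Fcgr2b had 0.71 (adjusted p = 0.126).

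Among factors that attract B cells or keep them alive, 8 of 11 were tested, 1 rose and none fell, where 2.13% of all genes tested rose. The survival factor Tnfsf13b, known as Baff, which myeloid and stromal cells make, gave 8.07, 7.38, 7.46 and 7.59 in imiquimod tumours 1 to 4, against 6.90, 6.45, 6.53 and 6.38 in control tumours 1 to 4. The groups were fully apart, and it rose by 1.06 (SE 0.16, limma adjusted p = 0.0121), with a control mean of 6.57, under the filter limit. Its call was lost without imiquimod tumours 3 and 4 together (adjusted p = 0.0769), and with the mean of its kept probes the log2 fold change was 0.44 (adjusted p = 0.0366). Cxcl13, which draws B cells into follicles, had 7.40, 7.51, 8.22 and 10.29 in imiquimod tumours 1 to 4, against 6.49, 6.65, 6.38 and 6.33 in control tumours 1 to 4. Imiquimod tumour 4 stood far above the others, and the log2 fold change of 1.90 (SE 0.53) did not pass (adjusted p = 0.0929), but it did without that tumour (1.25, adjusted p = 0.0213), and its control mean of 6.46 was under the filter limit. Cxcl12, which retains B cell precursors in bone marrow, had 0.69 (adjusted p = 0.117).

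Of 8 receptors and transporters of immunoglobulin, 6 were tested, 2 rose and none fell, where 2.13% of all genes tested rose. Fcgr4, an activating IgG receptor of myeloid cells, rose by 3.43 (SE 0.29, limma adjusted p = 0.00132), with 10.20, 10.36, 10.14 and 11.66 in imiquimod tumours 1 to 4, against 7.30, 7.23, 6.99 and 7.14 in control tumours 1 to 4. Fcgr1, the high-affinity IgG receptor, rose by 0.75 (SE 0.14, adjusted p = 0.0285), with a control mean of 6.55, under the filter limit. Its call was lost without imiquimod tumour 3 or 4, singly or together, or any 1 control tumour (adjusted p up to 0.115), and its log2 fold change was 0.48 without both of those imiquimod tumours.

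**Figure D4:**
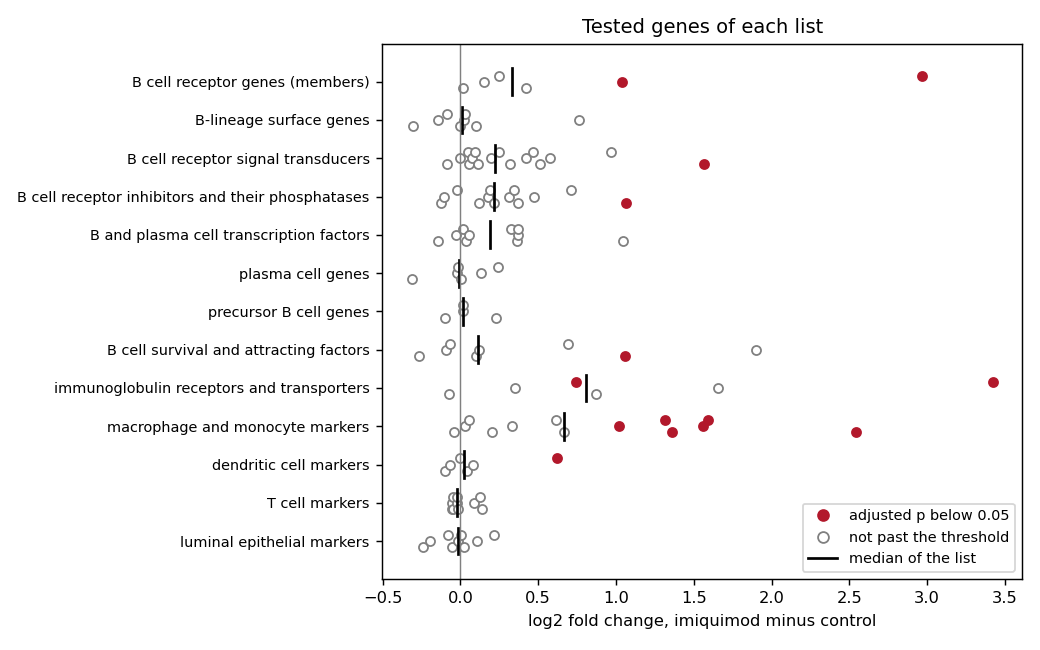
Log2 fold change (imiquimod minus control) of every tested gene in each list, with red points past an adjusted p of 0.05, open points not past it, and a black line at the median of the list. The B-lineage surface, transcription factor, plasma cell, precursor, T cell and luminal epithelial lists hold no red point. Of the macrophage and monocyte markers 6 of 13 tested are red, where 2.13% of all genes tested rose.

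Markers of other cells moved as follows beside Cd72 and Ighm. Among macrophage and monocyte markers, 13 were tested, of which 6 rose and 0 fell, where 2.13% of all genes tested rose and 2.2% fell. Their mean log2 signal over the list was 8.403 to 9.19 in imiquimod tumours and 7.76 to 8.04 in control tumours. The 6 were Cd14, C1qa, C1qb, C1qc, Aif1 and Adgre1, while Csf1r, Lyz2, Cd68 and Mrc1 did not pass. The list was highest in imiquimod tumour 3, at 9.19, the tumour where Cd72 was lowest, and its part in the rise of Cd72 was not tested. Of 6 dendritic cell markers tested, 1 rose, the integrin Itgax (0.62, limma adjusted p = 0.0229, control mean 6.46 and so under the filter limit), with a mean over the list of 6.93 to 7.03 in imiquimod tumours and 6.85 to 6.93 in control tumours. None of 10 T cell markers passed (0 had an unadjusted p below 0.05), with a mean of 6.80 to 7.06 in imiquimod tumours and 6.81 to 6.95 in control tumours. Among defining B cell markers, Cd79a and Pax5 lay under the filter limit of 6.64 in their mean over all tumours, and Cd79b and Cd22 were near it.

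The genes whose pattern over the 8 arrays was most like that of Cd72 were Ccl4, Fcgr4, Slamf9, Klra17 and Tgfbi, with Pearson correlations of 0.992, 0.992, 0.991, 0.986 and 0.984. Ccl4 is a chemokine and Tgfbi a matrix protein, and all 5 rose with imiquimod, by 4.70, 3.43, 2.41, 1.68 and 3.00 on the log2 scale. The control values of Klra17, 5.95 to 6.29, lay under the filter limit of 6.64. It was kept through its imiquimod values of 7.33 to 8.45. The genes most like Ighm were Ngdn, Asb2, Slamf9, Lst1 and Cd72 itself, with correlations of 0.984, 0.981, 0.980, 0.979 and 0.978. Their log2 fold changes were 0.29, 1.44, 2.41, 1.80 and 2.97. These correlations describe 8 arrays that fall into the 2 treatment groups, so any gene that differs strongly between the groups scores high, and no test was made.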

How the data were processed

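Total RNA of 8 tumours was labelled with biotin and hybridised to Illumina bead arrays, per the labels' protocols. The authors deposited log2 signals whose distributions hardly differ between arrays. All imiquimod arrays share a top value of 15.07 and all control arrays one of 14.86, so treatment and any normalization within a group cannot be told apart. A tool, affy, is listed in the submitters' processing notes, without version or role, and background correction is not given in the sources used here. A second table supplied accessions and symbols only, since its 16 columns of values match no sample label and were not used. Of 24341 probes, 20038 were named by accession, 1622 by current symbol, 1738 by synonym and 688 by the file's symbol, from a RefSeq table of GRCm38.p6, and 255 had no name.

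Probes with a mean under 6.64, the dimmest 33.3%, were left out, which kept 16227. Each gene was represented by its brightest probe, and limma 3.58.1 in R 4.3.3 (lmFit, eBayes, two-sided, no covariates) compared the groups over 13142 units. Of these 569 passed, 280 higher and 289 lower. The procedure was tested on simulated data. Precision is limited by having 4 arrays a group.

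The members, lists and alternatives were chosen with earlier results of these data known. Named are all members, the other immunoglobulin probes, the 3 genes of each pathway list with the smallest p, all called list genes, Pax5, Ptpn6, Syk and Sema4d, and the 5 genes most correlated with Cd72 and with Ighm. One gene that the rule names is not reported here. Marker genes of other cells were named after their values were seen. Replicate numbers were not used as pairs in the main fit. The deviations of same-numbered tumours correlated by -0.02 to 0.04, which over 4 tumours a group cannot settle if the design was paired. Alternatives changed the filter, the probe rule, the normalization, the background, the variance model and the array weights, added the replicate number as a block, or left out 1 tumour at a time or imiquimod tumours 3 and 4 together.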

Additional observations from a re-analysis of the deposited data

Results flagged for a closer look

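Of 96 groups of 4 tumours examined over the genes named, 6 held a tumour far from the other 3, and chance alone flags about 1 in 20. Imiquimod tumour 4 was far above its group for Fcgr4 (11.66) and Prkcb (8.86) and far below it for Igh-V7183 (6.50). Imiquimod tumour 2 was far below its group for Ly86 (7.33). Control tumour 2 was far below the other controls for Vav1 (6.92), and control tumour 4 for Klra17 (5.95).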

How the results depend on the processing

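Cd72 kept its direction and its call in all 20 alternatives, and Ighm in 19 of 20, the exception being imiquimod tumours 3 and 4 left out together. In that alternative 1 member and 112 genes were called. Leaving out 1 tumour at a time gave 279 to 913 genes called, lowest without imiquimod replicate 3 and highest without imiquimod replicate 1, and 2 members each time. With the replicate block 501 genes and 2 members were called, and no call among the members changed, but Ly86 (adjusted p = 0.0382) and Prkcb (0.0425) passed and Ngdn (0.0852) did not. Over all alternatives, calls were gained for Ly86 in 5, Btk in 3, Prkcb and Cxcl13 in 2 each, and Spi1, Ebf1 and Bcl6 in 1 each. Calls were lost for Ngdn in 12, Fcgr1 in 7, Dok3 in 6, Asb2 in 5 and Tnfsf13b in 1. The direction reversed for genes that did not pass and lay near 0: Cd22 gave -0.0079 with array weights and -0.033 to 0.088 with a tumour left out, and Cd93 gave -0.15 and Ighv7-3 0.021 without imiquimod tumours 3 and 4. With 1 tumour left out the ranges were -0.031 to 0.031 for Ighv7-3, -0.030 to 0.25 for Fkbp11, -0.062 to 0.050 for Igkv13-84 and -0.015 to 0.068 for Vpreb1; the causes were not tested. The change of Cd72 exceeded that of each other member by 1.73 to 3.22 with 1 tumour left out. Signals near the array median limit what can be said of Cd79b, Cd22 and Cd37, and Cd79a and Jchain were too dim to be tested.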
